A study of Mus musculus with 8 samples.

Results

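Eph receptors, ephrins, netrins and their receptors are the contact and diffusible cues that steer axons and migrating cells. A list of 32 such genes was examined in the cortex of newborn mice lacking the chromatin remodeling BAF complex in principal neurons. The genes were chosen by symbol and all 32 were found among the 48709 genes listed per library. They comprise 9 EphA receptors, 5 EphB receptors, 5 ephrin-A ligands, 3 ephrin-B ligands, a set of 5 secreted or membrane-anchored cues (Ntn1, Ntn4, Ntng1, Ntng2 and Draxin) and 5 receptors that bind netrins (Dcc, Neo1, Unc5a, Unc5b and Unc5c).

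Eph receptors are the largest family of receptor tyrosine kinases. They bind ephrins on neighbouring cells, the ephrin-A ligands being held by a lipid anchor and the ephrin-B ligands spanning the membrane, and signals run into both cells. In the cortex they are known for the mapping of thalamic and cortical axons, for boundaries between areas and for the sideways spread of migrating neurons. Netrins attract axons through Dcc and repel them through the Unc5 receptors, and neogenin (Neo1) binds both netrins and repulsive guidance molecules.

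The question was which of these genes differ in mRNA level between the control and the dcKO_Nex-Cre cortex at P1. RNA-seq gave 4 control and 4 dcKO_Nex-Cre libraries from whole cortex, labelled only as control or mutant of age P1. From the methods of the study, the mutants came from crosses of floxed BAF155 (gene Smarcc1) and floxed BAF170 (gene Smarcc2) mice with the Nex-Cre line, which deletes both genes in postmitotic principal neurons. Controls were BAF155fl/+ and BAF170fl/+ animals without Cre, and all mice were on a C57BL6/J background. The presence of Cre and the loss of both genes therefore cannot be told apart, and glia, interneurons and vessels keep both genes in the mutant. Whether each library came from 1 animal is not stated, so p-values measure the spread between these libraries.

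Total counts per library were 18737230 to 24036915 in control and 17958641 to 35191912 in dcKO_Nex-Cre cortex. Smarcc1 in the mutant was at 69.2% of control (log2 fold change -0.53, SE 0.10, adjusted p = 0.0348) and Smarcc2 at 56.9% (-0.81, SE 0.09, adjusted p = 0.00267). The cortical excitatory neuron markers summed to 2083 to 2381 CPM (read counts scaled to the library total) in control and 2106 to 2415 CPM in mutant libraries, and each of the 12 genes was tested, so the defining markers of the labelled tissue were present. In both groups 1 library stood apart in the share of counts from mitochondrial genes, namely control replicate 2 at 6.87% against 3.38% to 4.24%, and dcKO_Nex-Cre replicate 4 at 6.15% against 2.33% to 3.47%. All controls and mutant replicates 1 and 2 carry lane tag 2 in their deposited names, while mutant replicates 3 and 4 carry lane tag 8. In bulk tissue, fewer cells of a type and less RNA per cell cannot be told apart.

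The members differed widely in level. Genes were compared with each other per kilobase of exon. The length joins all annotated exons of a gene, so the order of genes depends on it. The ephrin-B ligand Efnb3 had the highest control mean at 67.8 CPM per kb, followed by Neo1 at 43.8 and Efnb2 at 29.4. Next came Draxin at 27.6, Epha4 at 22.8 and Ephb6 at 22.0. Epha1 was almost silent at 0.0333 CPM per kb and was the only member below the count filter of the fit, with a mean of 4.125 counts, and it shares 236 exon bases with Zyx on the opposite strand. Epha2 was tested but low, at 0.296 CPM per kb in control and 0.297 in mutant cortex. Among EphA receptors the order was Epha4, Epha5, Epha3 (9.32), Epha7 (8.89), Epha8 (3.45), Epha6 (1.40) and Epha10 (0.734), and the control ranges of Epha3 and Epha7 overlapped.

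**Figure D1:**
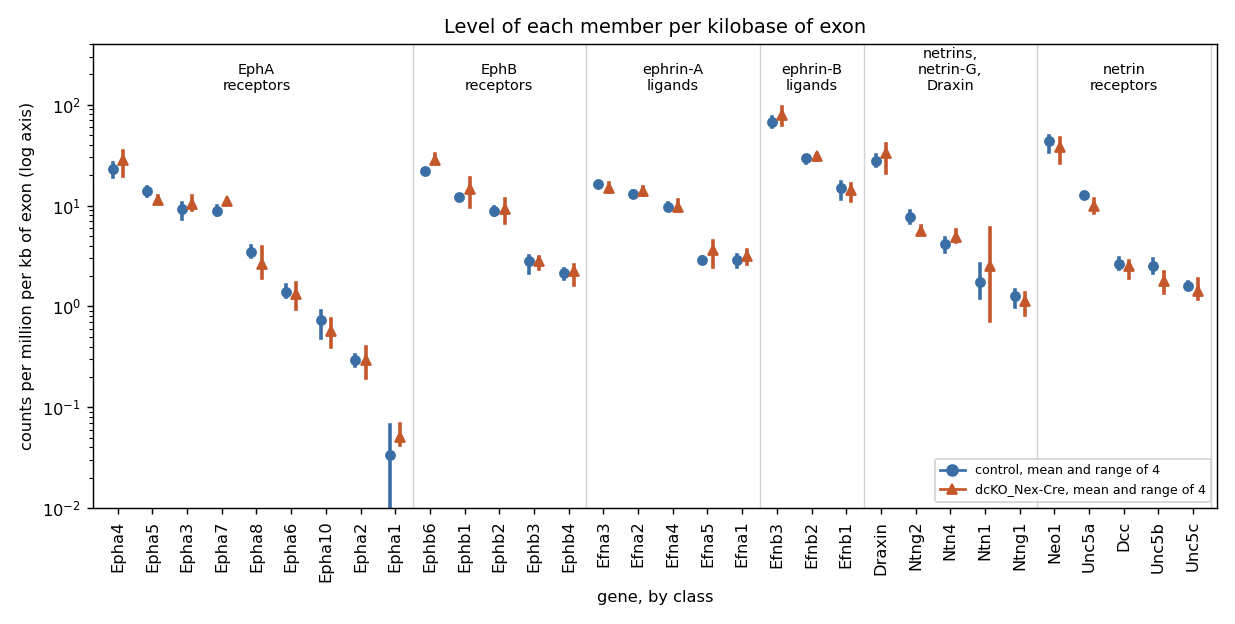
Level of each of the 32 members in CPM per kb of exon on a log axis, by class. Circles and triangles are the means of 4 control and 4 dcKO_Nex-Cre libraries and vertical lines their lowest and highest library, with the control line of Epha1 cut at the axis because 1 library was at 0. Efnb3 lies highest, at 67.8 in control, and Epha1 lowest.

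No member passed an adjusted p of 0.05 in the edgeR fit, in which 0.51% of the 16287 genes tested were lower and 0.375% higher in dcKO_Nex-Cre cortex. The smallest adjusted p was 0.0681, for Ephb6. At an unadjusted p under 0.05, 4 of the 31 members tested were lower (Epha5, Ntng2, Unc5a, Unc5b) against 7.05% of all genes tested, and 2 were higher (Epha7, Ephb6) against 6.59%. The groups did not overlap in CPM for 3 members with lower values in the mutant, against 4.01% of all genes, and for 2 with higher values, against 3.99%. The median log2 fold change of the members was 0.02, beside 0.004 for all genes tested. Other tools gave other counts. DESeq2's Wald test called Ntng2 lower, with 1.66% of genes called, and Epha7 and Ephb6 higher, with 1.31% called. Limma-voom called no member. It gave 4 lower (7.87% of all genes) and 2 higher (6.4%) at an unadjusted p under 0.05.

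Several of these calls depended on mutant replicate 4. Without it, edgeR called 2 members lower (Ntng2, Unc5b), with 3.74% of all genes called, and 6 higher (Epha4, Epha7, Ephb1, Ephb6, Efna5, Draxin), with 3.98% called. When control replicate 2 was left out as well, an alternative chosen after seeing the data, 3 members were lower (Epha5, Ntng2, Unc5b; 5.5% of all genes) and the same 6 higher (5.49%). Lane tag 2 held all controls and mutant replicates 1 and 2. Within it, no member was lower (0.643% of all genes) and Ephb1 and Ephb6 were higher (0.834%). There, 4 members were lower at an unadjusted p under 0.05, beside 11.8% of all genes. Lane tag 8 held mutant libraries only and gave no comparison. At an unadjusted p under 0.05, the members with higher values numbered 8 without mutant replicate 4 (14.3% of all genes), 7 without both libraries (14.9%) and 6 within lane tag 2 (11.7%). Members whose mutant libraries all lay above all controls numbered 6 without mutant replicate 4 (13.4% of all genes), 6 without both libraries (16.8%) and 9 within lane tag 2 (17.4%), where only 2 mutant libraries had to clear the controls. The share of all genes called or not overlapping was thus larger in each of these fits than with all libraries.

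**Figure D2:**
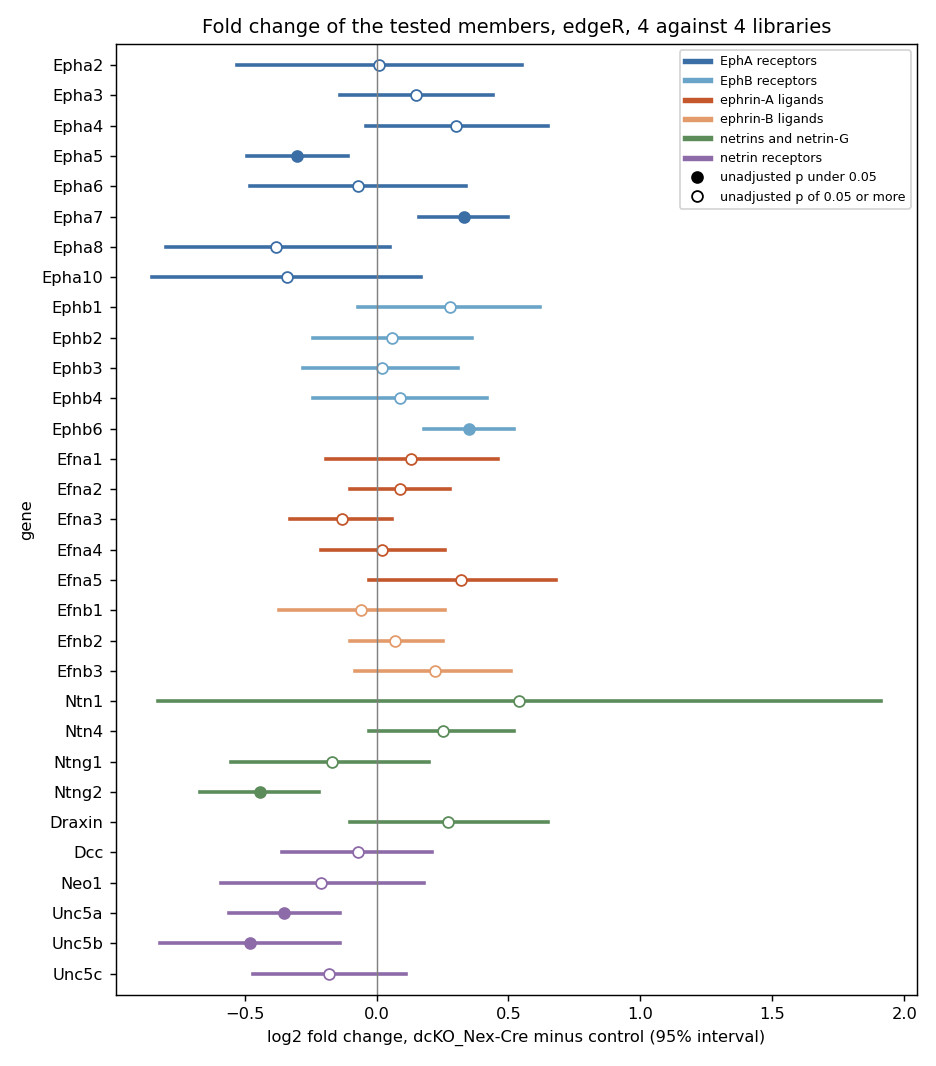
Log2 fold change (dcKO_Nex-Cre minus control) of the 31 members tested, as points with 95% intervals from edgeR, colored by class, with Draxin drawn among the netrins. Filled points are the 6 members with an unadjusted p under 0.05, and the widest interval is that of Ntn1, from -0.83 to 1.91.

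The 5 members whose groups did not overlap had no adjusted p under 0.05 in the edgeR fit. Their promoter sequences are shown here as a description. Each is the stretch of 250 bases before the gene's RefSeq start on GRCm38.p6, written 5′ to 3′ along the transcript: Epha7 at chr4:28812881-28813130 (plus strand), Ephb6 at chr6:41605261-41605510 (plus), Epha5 at chr5:84417383-84417632 (minus), Ntng2 at chr2:29248100-29248349 (minus) and Unc5a at chr13:54949161-54949410 (plus). Capitals mark matches to the E-box CANNTG, the motif bound by neuronal basic helix-loop-helix factors, searched on both strands.
Epha7: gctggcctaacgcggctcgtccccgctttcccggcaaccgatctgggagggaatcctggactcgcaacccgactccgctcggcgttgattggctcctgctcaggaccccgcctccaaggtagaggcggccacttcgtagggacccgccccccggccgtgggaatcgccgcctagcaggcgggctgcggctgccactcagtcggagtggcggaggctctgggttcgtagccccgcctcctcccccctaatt
Ephb6: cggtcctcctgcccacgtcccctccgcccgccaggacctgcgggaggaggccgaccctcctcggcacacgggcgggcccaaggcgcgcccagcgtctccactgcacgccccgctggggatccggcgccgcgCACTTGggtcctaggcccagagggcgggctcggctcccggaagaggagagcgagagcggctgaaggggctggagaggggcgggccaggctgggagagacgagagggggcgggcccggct
Epha5: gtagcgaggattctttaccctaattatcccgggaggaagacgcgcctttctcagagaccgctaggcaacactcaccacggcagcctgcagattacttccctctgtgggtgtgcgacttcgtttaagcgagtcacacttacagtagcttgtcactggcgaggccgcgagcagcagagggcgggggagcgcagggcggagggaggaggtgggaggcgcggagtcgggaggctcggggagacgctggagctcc
Ntng2: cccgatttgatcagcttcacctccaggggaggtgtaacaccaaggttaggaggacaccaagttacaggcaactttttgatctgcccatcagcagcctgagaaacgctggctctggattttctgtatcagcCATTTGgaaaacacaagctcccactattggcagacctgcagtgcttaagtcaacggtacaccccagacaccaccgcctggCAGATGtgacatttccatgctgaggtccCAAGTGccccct
Unc5a: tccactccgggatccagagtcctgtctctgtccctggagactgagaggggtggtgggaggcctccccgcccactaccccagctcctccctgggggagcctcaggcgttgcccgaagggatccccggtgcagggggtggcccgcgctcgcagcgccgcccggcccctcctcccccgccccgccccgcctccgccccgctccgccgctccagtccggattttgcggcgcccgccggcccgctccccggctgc

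The windows of Epha7, Ephb6, Epha5 and Unc5a were rich in G and C (69.2%, 76.8%, 62.4% and 76.8%) and in CpG dinucleotides (25, 27, 20 and 25), against medians of 52.4% and 6 over 32841 RefSeq promoters. The Ntng2 window had 52.4% G and C and 4 CpG, and its RefSeq start lies 4906 bases from the GENCODE M21 start. RefSeq entries were matched for 29 of the 32 members. Efnb3 and Ntn1 were not matched, and entries on chromosome 18, which holds Dcc, were left out of the matching. An E-box was found in 12 of the 29 windows (41.4%), beside 66.2% of all promoters of this length. Its form CAGATG, which overlaps CANNTG by definition, was found in 4 members (13.8%, beside 14.4%). The TCF/LEF core CTTTGAT was in 0 members (3.21% of all promoters) and TATAAA in 1, Efnb2 (3.45%, beside 12.4%).

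Among the EphA receptors, which mainly bind ephrin-A ligands, Epha7 was higher and Epha5 lower in the mutant. Epha7 is a receptor known from cortical area boundaries and from corticothalamic mapping (chromosome 4, 28813131 to 28967499, plus strand, GRCm38). Its values were 91.0, 83.3, 80.3 and 97.0 CPM in control replicates 1 to 4 and 116, 112, 107 and 107 CPM in mutant replicates 1 to 4. Every mutant library was above every control library. The log2 fold change was 0.33 (SE 0.08, 95% interval 0.16 to 0.50, unadjusted p = 0.00118, adjusted p = 0.0795), and the two-sided exact permutation test of mean CPM gave p = 0.0286, the smallest that 70 regroupings allow. Groups of 4 that do not overlap always give this p, so for such members it only restates the lack of overlap.

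Epha5, a receptor that guides topographic projections, had lower values in the mutant (chromosome 5, 84054761 to 84417382, minus strand). It stood at 248, 209, 230 and 255 CPM in control and at 205, 176, 194 and 191 CPM in mutant libraries. All mutant libraries were below all controls, the closest pair being mutant replicate 1 and control replicate 2. This gave a log2 fold change of -0.30 (SE 0.09, interval -0.49 to -0.11, unadjusted p = 0.00502, adjusted p = 0.158, exact permutation p = 0.0286). Without mutant replicate 4 and control replicate 2, an alternative chosen after seeing the data, its adjusted p was 0.0126. With 1 library left out at a time it was 0.0593 to 0.425.

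Epha4, which binds ephrins of both classes and is needed for the corticospinal tract, had the highest EphA level per kb. Its values were 193, 156, 214 and 172 CPM in control and 236, 279, 232 and 159 CPM in mutant libraries. Mutant replicates 1 to 3 were above every control, and replicate 4 lay near the lowest control, so the groups overlapped. With all libraries the log2 fold change was 0.30 (SE 0.16, interval -0.04 to 0.65, unadjusted p = 0.0766, adjusted p = 0.41), and without mutant replicate 4 it was 0.44 (SE 0.11, adjusted p = 0.0382). Without mutant replicate 2, the highest library, it was 0.19 (SE 0.16, adjusted p = 0.682).

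The other EphA receptors had overlapping groups and unadjusted p-values of 0.0761 or more. Epha8 and Epha10, the latter without an active kinase, were at 76.9% and 78.0% of control (log2 fold changes -0.38, interval -0.80 to 0.05, and -0.34, interval -0.85 to 0.17). Single libraries moved both: Epha8 was at -0.62 (unadjusted p = 0.000806, adjusted p = 0.0981) without mutant replicate 2, -0.25 without mutant replicate 3 and -0.12 within lane tag 2, and its adjusted p with a replicate block was 0.3 (unadjusted p = 0.0144). Epha10 was at -0.20 without mutant replicate 4, -0.22 without control replicate 2, -0.50 (unadjusted p = 0.0476, adjusted p = 0.388) without control replicate 3 and -0.05 within lane tag 2. Epha3 stood at 111% (log2 fold change 0.15, and 0.06 without control replicate 2 or mutant replicate 4) and Epha6 at 94.9%, with intervals of -0.14 to 0.44 and -0.48 to 0.34, and Epha2 at 100%, with -0.53 to 0.55. Epha1 gave 0.0916, 0, 0.167 and 0.264 CPM in control and 0.203, 0.268, 0.165 and 0.168 CPM in mutant libraries, too few counts for a fold change to be read.

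The summed EphA level was 53.9 to 63.5 CPM per kb in control and 58.3 to 71.7 in mutant libraries, which overlap. Epha5 gave 23.4%, 23.1%, 21.7% and 24.2% of that sum in control and 17.6%, 14.7%, 18.0% and 19.6% in mutant libraries, with no overlap. The shares of Epha7 did not overlap either, and those of the other 7 EphA genes did. Epha7 gave 12.8% to 15.6% in control and 15.7% to 18.6% in mutant libraries. Shares of 1 sum depend on each other, and these repeat the single-gene values on another scale, so no test was made. Per kb, Epha4 was the leading EphA gene in every library, at 33.8% to 41.8% in control and 33.9% to 48.3% in mutant. That order rests on the exon lengths used, 8054 bases for Epha4 and 16739 for Epha5. In CPM, Epha5 lay above Epha4 in every control and in mutant replicate 4, and below it in mutant replicates 1 to 3.

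**Figure D3:**
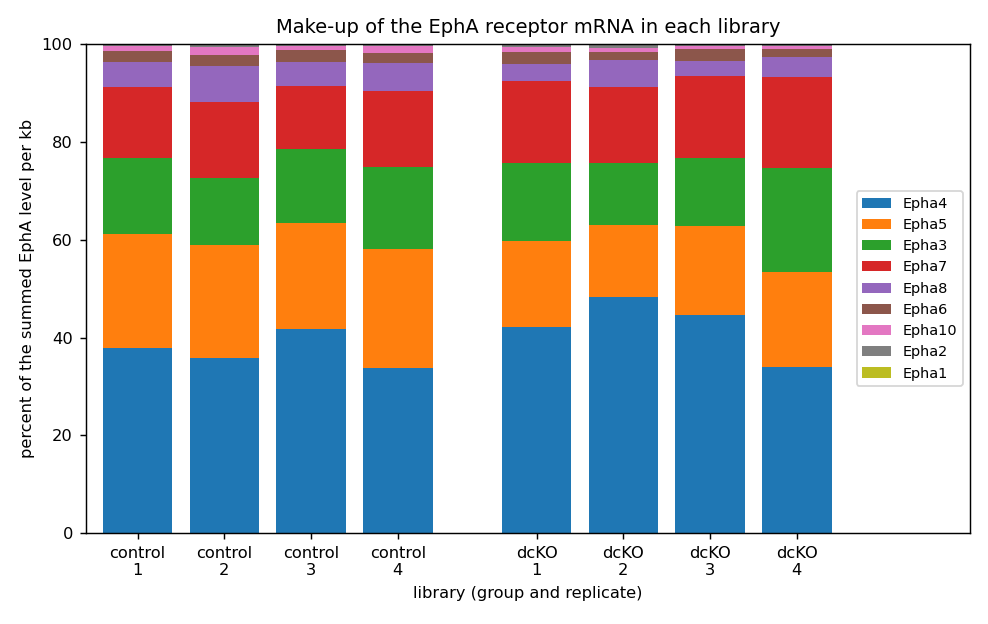
Percent of the summed EphA level (CPM per kb) from each of the 9 EphA genes in each library, stacked to 100%. The Epha5 band is thinner in all 4 dcKO_Nex-Cre libraries (mean 17.5%) than in all 4 controls (mean 23.1%), and the Epha7 band is thicker (17.0% against 14.6%).

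Among the EphB receptors, which bind ephrin-B ligands, Ephb6 was higher in the mutant. Ephb6, a receptor without kinase activity (chromosome 6, 41605482 to 41620509, plus strand), also had the highest EphB level per kb. It was tight in control, at 82.0, 83.5, 81.5 and 84.4 CPM, and reached 121, 101, 99.6 and 101 CPM in mutant libraries. Every mutant library was above every control, and mutant replicate 1 lay above the other 3 mutants. With all libraries, the log2 fold change was 0.35 (SE 0.08, interval 0.18 to 0.52, unadjusted p = 0.000874, adjusted p = 0.0681, exact permutation p = 0.0286), and without mutant replicate 4 the adjusted p was 0.0186.

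Ephb1, a receptor of retinal and cortical axons, is named after its values were seen because its result depended on single libraries. It gave 84.6, 82.1, 87.7 and 83.2 CPM in control and 115, 130, 95.4 and 68.3 CPM in mutant libraries. Mutant replicates 1 to 3 lay above all controls and replicate 4 below all of them. Its fitted log2 fold change was 0.28 (SE 0.16, unadjusted p = 0.103, adjusted p = 0.453), 0.43 (SE 0.09, adjusted p = 0.0224) without mutant replicate 4, 0.15 (SE 0.15, adjusted p = 0.751) without mutant replicate 2, and 0.54 (SE 0.08, adjusted p = 0.0175) within lane tag 2.

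Ephb2, Ephb3 and Ephb4 stood at 104%, 101% and 106% of control, with overlapping groups. Ephb4 is known as a receptor of venous endothelium. All 5 EphB genes had a log2 fold change above 0 with all libraries, though that of Ephb2 turned below 0 without mutant replicate 1 and that of Ephb3 did so in 4 of the alternative fits. The summed EphB level was 45.9 to 49.1 CPM per kb in control and 65.4, 60.2, 54.6 and 47.1 in mutant libraries, the last being replicate 4 and lying within the control range.

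**Figure D4:**
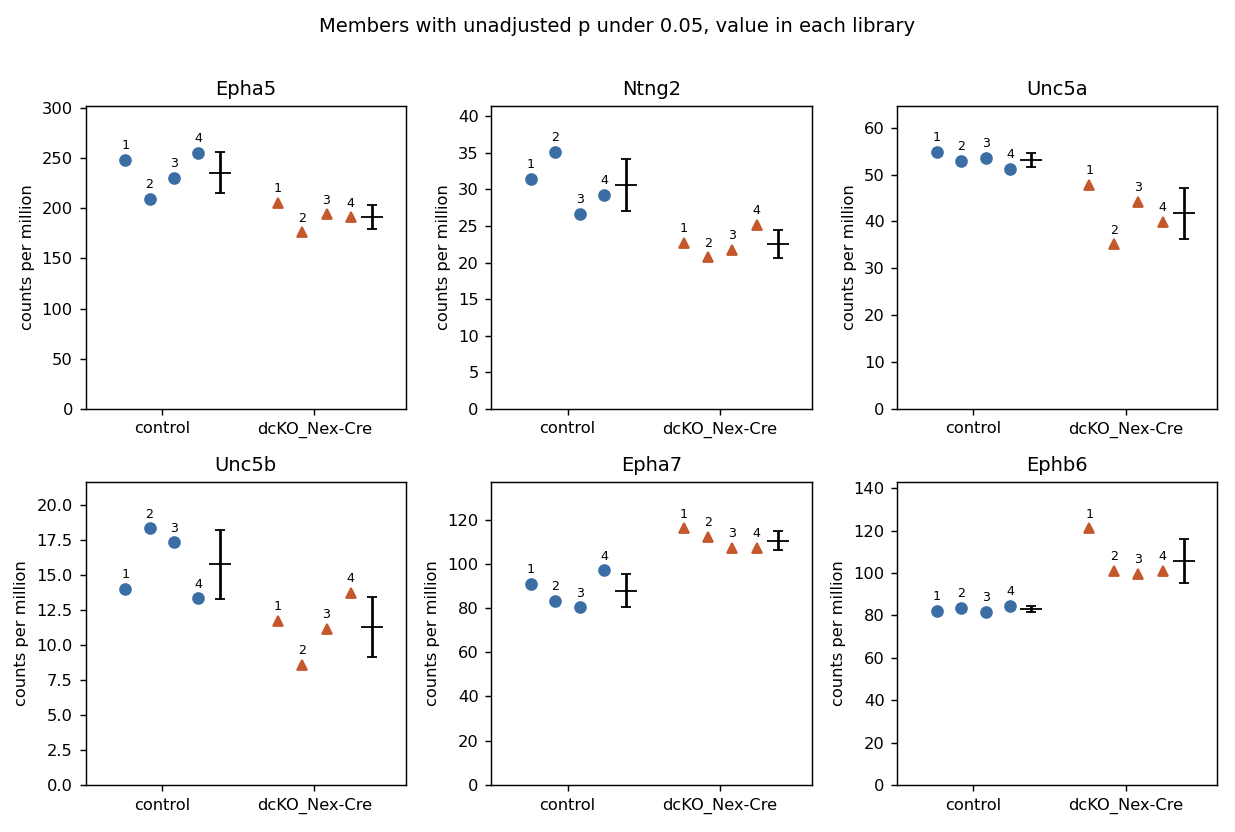
CPM in each library for the 6 members with an unadjusted p under 0.05, on axes that start at 0. Numbered points are replicates, and the black mark beside each group is its mean with the SD of 4 libraries. Epha5, Ntng2 and Unc5a lie lower and Epha7 and Ephb6 higher in every mutant library, while Unc5b overlaps by 1 mutant library.

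The ephrin-A ligands gave no member with an unadjusted p under 0.05. Efna3 had the highest level per kb and stood at 38.4, 37.1, 41.2 and 42.1 CPM in control and 41.2, 34.3, 36.1 and 32.9 CPM in mutant libraries. Mutant replicates 2 to 4 were below all controls and replicate 1 was not. The fitted difference was a log2 fold change of -0.13 (SE 0.09, interval -0.33 to 0.06, unadjusted p = 0.157, adjusted p = 0.519), and without mutant replicate 1 it was -0.20 (unadjusted p = 0.0324, adjusted p = 0.39). As a share of the summed ephrin-A level, Efna3 gave 35.0% to 38.4% in control and 31.5% to 33.6% in mutant libraries, without overlap.

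Efna5, the ephrin known from retinotectal and cortical area maps, is named after its values were seen. It gave 11.8, 11.1, 12.5 and 11.3 CPM in control and 17.8, 14.5, 16.1 and 9.82 CPM in mutant libraries. Mutant replicates 1 to 3 were above all controls and replicate 4 below all of them. On the log2 scale the difference was 0.32 (SE 0.16, unadjusted p = 0.0673, adjusted p = 0.397) and without mutant replicate 4 it was 0.47 (SE 0.10, adjusted p = 0.0256). Without mutant replicate 1, the highest library, it was 0.21 (SE 0.16, adjusted p = 0.686). Efna1, Efna2 and Efna4 were at 110%, 106% and 101% of control with overlapping groups. Efna1, Efna3 and Efna4 are neighbours on chromosome 3, with gaps of 32756 bases between Efna1 and Efna3 and 10424 bases between Efna3 and Efna4, and their log2 fold changes were 0.13, -0.13 and 0.02.

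The ephrin-B ligands carried the most mRNA per kb of any class and none passed an unadjusted p of 0.05. Efnb3, which acts at the midline to keep corticospinal axons from crossing back, gave 215, 189, 221 and 238 CPM in control and 299, 219, 285 and 199 CPM in mutant libraries. Mutant replicates 1 and 3 were above all controls while replicates 2 and 4 lay inside the control range. The log2 fold change was 0.22 (SE 0.13, interval -0.08 to 0.51, unadjusted p = 0.131, adjusted p = 0.487). It was 0.12 (adjusted p = 0.792) without mutant replicate 1 and 0.31 (unadjusted p = 0.0152, adjusted p = 0.0957) without mutant replicate 4. Efnb2, the ephrin of arterial endothelium and of many neurons, was at 105% of control (interval -0.10 to 0.25) and Efnb1 at 96.2% (interval -0.37 to 0.26).

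Among the netrins and related cues, Ntng2 was lower in the mutant. Netrin-G2 is a lipid-anchored relative of the netrins that binds the synaptic adhesion molecule Lrrc4 rather than Dcc. Ntng2 (chromosome 2, 29194541 to 29253005, minus strand) gave 31.4, 35.1, 26.6 and 29.3 CPM in control and 22.7, 20.7, 21.7 and 25.1 CPM in mutant libraries. All mutant libraries were below all controls, mutant replicate 4 being the closest. This gave a log2 fold change of -0.44 (SE 0.10, interval -0.67 to -0.22, unadjusted p = 0.00123, adjusted p = 0.0809, exact permutation p = 0.0286). It had an adjusted p of 0.0439 when no count filter was applied, 0.00879 in DESeq2 and 0.0193 without mutant replicate 4. The adjusted p was 0.0855 in limma-voom, 0.0663 within lane tag 2 and 0.185 with a replicate block. With 1 library left out at a time it reached 0.275, and 1 of the 8 fits passed 0.05. Its exons share 558 bases with 6530402F18Rik on the same strand, so reads of the shared stretch cannot be assigned to 1 of the genes with certainty, and Ntng1, its closest relative, stood at 88.4% of control (log2 fold change -0.17, interval -0.55 to 0.20, and -0.28 to -0.05 when single libraries were left out, the ends being without mutant replicates 1 and 4).

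Draxin, a secreted repellent that binds netrin-1 and Dcc, had the highest level per kb of these cues. It gave 144, 137, 165 and 129 CPM in control and 212, 178, 195 and 110 CPM in mutant libraries. As for Ephb1 and Efna5, mutant replicates 1 to 3 were above all controls and replicate 4 below all of them. With all libraries, the log2 fold change was 0.27 (SE 0.17, interval -0.10 to 0.65, unadjusted p = 0.137, adjusted p = 0.495), and 0.44 (SE 0.09, adjusted p = 0.0224) when mutant replicate 4 was left out. Without mutant replicate 1, the highest library, it was 0.16 (SE 0.17, adjusted p = 0.79).

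Ntn1, the attractant netrin-1, is named after its values were seen because 1 library set its mean. It gave 8.75, 16.6, 7.51 and 10.8 CPM in control and 11.1, 37.2, 10 and 4.55 CPM in mutant libraries. Mutant replicate 2 lay far above all other libraries, and the other 3 mutants overlapped the controls or lay below them. Its fitted log2 fold change was 0.54 (SE 0.60, adjusted p = 0.713), and without mutant replicate 2 it was -0.32 (SE 0.32, adjusted p = 0.745). It was 0.82 without control replicate 2 and 0.84 without mutant replicate 4. In mutant replicate 2 the 8 striatal markers summed to 272 CPM, against 97.3 to 147 CPM in the other 7 libraries, with Drd2 at 12.4 CPM there against 1.23 to 5.25 CPM elsewhere. The 8 meningeal fibroblast markers also stood highest in that library, at 82.1 CPM against 12.7 to 40.8 CPM in the other 7. Mutant replicate 2, 1 of the 2 mutant libraries of lane tag 2, was also the highest library for Epha4 (279 CPM) and Ephb1 (130 CPM). The part of striatal or meningeal tissue in the values of Ntn1, Epha4 and Ephb1 was not tested. Ntn4, a netrin of basement membranes, stood at 119% of control (log2 fold change 0.25, interval -0.03 to 0.52, unadjusted p = 0.0763) and its log2 fold change was 0.16 without mutant replicate 3.

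**Figure D5:**
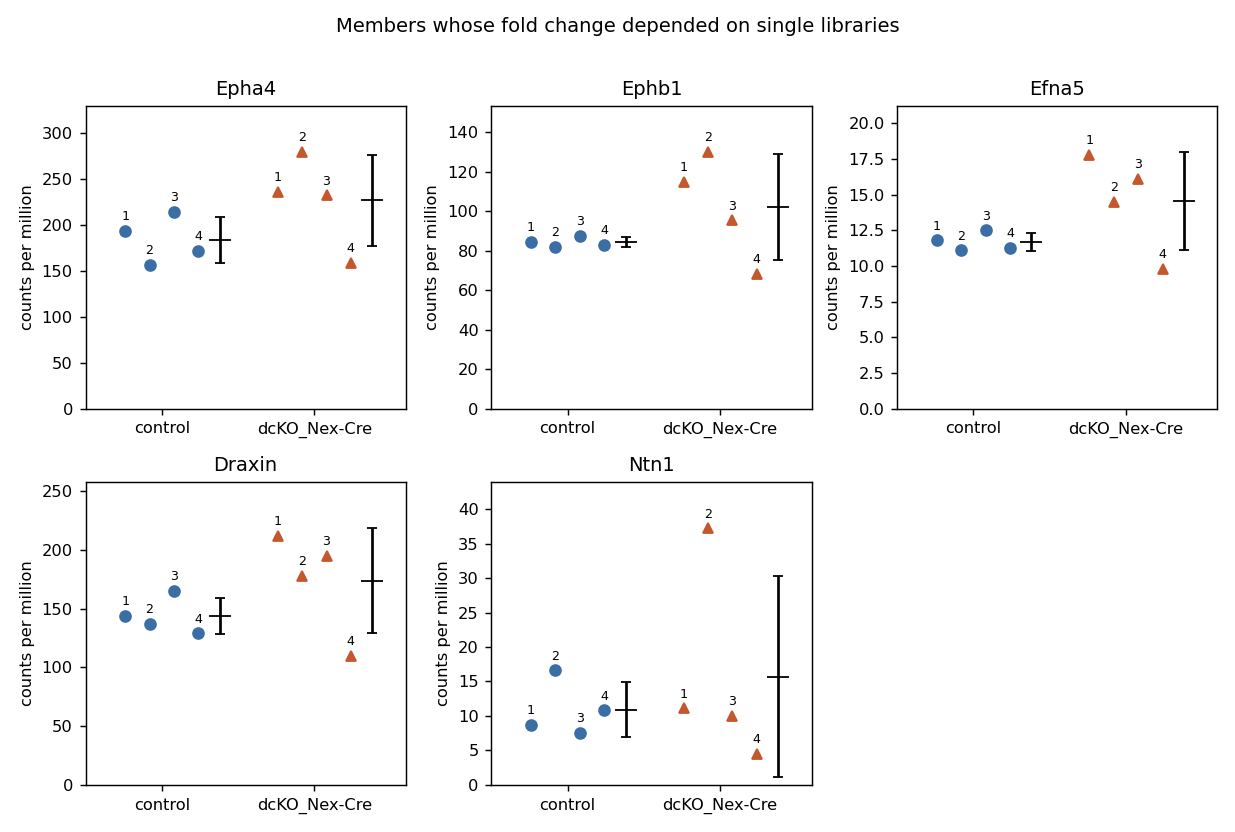
CPM in each library for 5 of the members whose fold change moved by over 1.5 times when single libraries were left out, on axes that start at 0, with numbered replicates and the mean with SD of 4 libraries. Other members that moved as much are not drawn, among them Neo1 (log2 fold change -0.21, and -0.06 without mutant replicate 4) and Unc5c (-0.18, and -0.34 without mutant replicate 1). Replicate 4 is the lowest mutant for Epha4, Ephb1, Efna5 and Draxin, and replicate 2 is the highest for Ntn1, at 37.2 CPM.

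The netrin receptors included Unc5a and Unc5b, receptors that mediate repulsion from netrins, both lower in the mutant at an unadjusted p under 0.05. Unc5a (chromosome 13, 54949411 to 55006018, plus strand) was tight in control at 54.8, 53.0, 53.5 and 51.3 CPM and gave 47.8, 35.1, 44.2 and 39.9 CPM in mutant libraries. All mutant libraries were below all controls, with a wider spread. Unc5a shares 34 exon bases with Hk3 (mean 29.5 counts) on the opposite strand, and strand was not kept. Its log2 fold change was -0.35 (SE 0.10, interval -0.56 to -0.14, unadjusted p = 0.00382, adjusted p = 0.139, exact permutation p = 0.0286), and no alternative fit brought its adjusted p below 0.05.

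Unc5b, which is also a receptor of vessels (chromosome 10, 60762593 to 60831581, minus strand), gave 14.0, 18.3, 17.3 and 13.3 CPM in control and 11.7, 8.58, 11.1 and 13.7 CPM in mutant libraries. Mutant replicates 1 to 3 were below all controls and replicate 4 was above the lowest control. The fitted difference was a log2 fold change of -0.48 (SE 0.16, interval -0.82 to -0.14, unadjusted p = 0.0098, adjusted p = 0.207, exact permutation p = 0.0571). With 1 library left out at a time the adjusted p reached 0.428, and 1 of the 8 fits passed 0.05. Without mutant replicate 4, the fit that passed, the log2 fold change of Unc5b was -0.58 (SE 0.15, adjusted p = 0.0401). Beside it, the 10 endothelial markers summed to 165 to 240 CPM in control and 219 to 295 CPM in mutant libraries, overlapping and with a median log2 fold change of 0.24, and none passed the adjusted threshold while Slc2a1 and Ly6c1 were higher at an unadjusted p under 0.05. Their part in the Unc5b value was not tested.

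Neo1, the most abundant netrin receptor per kb, gave 412, 296, 423 and 396 CPM in control and 405, 294, 393 and 232 CPM in mutant libraries. The groups overlapped, with mutant replicates 2 and 4 and control replicate 2 low. On the log2 scale the difference was -0.21 (SE 0.17, interval -0.59 to 0.18, unadjusted p = 0.262, adjusted p = 0.615), with -0.06 without mutant replicate 4 and -0.32 without mutant replicate 1. Dcc stood at 94.8% (interval -0.36 to 0.21) and Unc5c at 88.2% of control (log2 fold change -0.18, interval -0.47 to 0.11). Unc5c was at -0.34 (unadjusted p = 0.00384, adjusted p = 0.166) without mutant replicate 1, -0.10 without mutant replicate 4 and -0.03 within lane tag 2. All 5 netrin receptors had a log2 fold change below 0 with all libraries, though that of Dcc was at or above 0 without mutant replicate 4, without control replicate 3, within lane tag 2 and without both libraries that stand apart. Their summed level was 53.7 to 68.8 CPM per kb in control and 41.5 to 64.2 in mutant libraries, with overlap.

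The signalling partners and other ligands of the members, 86 genes in 3 lists, were all tested. None passed an adjusted p of 0.05 in edgeR, and at an unadjusted p under 0.05 there were 5 lower and 8 higher, beside 7.05% and 6.59% of all genes. DESeq2 called 1 lower, with 1.66% of all genes called, and 1 higher, with 1.31% called. Of 44 Eph and ephrin partners, 3 were lower: Grip2, a scaffold that binds ephrin-B tails (63.4 CPM ± 11.2 in control and 43.3 ± 5.18 in mutant, SD, n = 4, log2 fold change -0.55, adjusted p = 0.0792), Arhgef15, an exchange factor for RhoA downstream of EphB2 (-0.48, adjusted p = 0.185), and the cofilin kinase Limk1 (-0.22, adjusted p = 0.198). The higher ones included the exchange factor Vav3 (0.28, adjusted p = 0.219) and the Rac-inactivating chimaerin Chn2 (0.24, adjusted p = 0.293).

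Of 28 netrin partners, the actin-binding Ablim3 (log2 fold change 0.43, adjusted p = 0.224) and the phospholipase Plcg1 (0.18, adjusted p = 0.327) were higher. Of 14 other ligands and partners, Flrt2, a ligand of Unc5 receptors, was higher at 95.7, 107, 93.9 and 92.8 CPM in control and 133, 116, 113 and 134 CPM in mutant libraries. Its groups did not overlap (log2 fold change 0.35, SE 0.08, unadjusted p = 0.00123, adjusted p = 0.0809). Lrrc4c, the ligand of netrin-G1, was at 72.0, 51.3, 65.7 and 71.2 CPM in control and 106, 84.6, 82.1 and 74.8 CPM in mutant libraries, also without overlap (0.42, SE 0.13, adjusted p = 0.187). Hfe2, a repulsive guidance molecule relative, was higher from a mean of 11.1 counts (1.03, adjusted p = 0.156), and the hedgehog coreceptor Boc was lower (-0.42, adjusted p = 0.179).

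The markers of other cell types gave overlapping sums in every list tested. Past the adjusted threshold were the excitatory progenitor and neuron gene Emx1 (log2 fold change -0.60), Cspg4 of oligodendrocyte precursors (0.56), C1qb of microglia (0.46) and Ppp1r1b of the striatum (0.96). The choroid plexus markers ranged from 5 to 1364 CPM over libraries and no list had a marker at 0 in all libraries. Radial glia and astrocyte markers summed to 2785 to 3406 CPM in control and 2594 to 3174 in mutant libraries, and interneuron markers to 806 to 949 and 708 to 860. The part of these cell types in the members' values was not tested.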

How the data were processed

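RNA-seq was measured in 8 libraries from P1 cortex, 4 control and 4 dcKO_Nex-Cre. Per the labels, total RNA of whole tissue was isolated with TRIZOL and libraries were made with the TruSeq RNA v2 kit, which does not keep strand. The deposited files hold whole-number read counts for each Ensembl identifier, which the authors neither normalized nor filtered, and the submitters' processing notes name build mm10. The aligner, the counting program and the annotation are not given in the sources used here. The labels give control or mutant, and the genotypes and the Cre line come from the study's methods.

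The 32 genes and all lists were chosen with earlier results of these data known. Symbols, positions and exon lengths came from GENCODE M21 (GRCm38) by Ensembl identifier, and promoters from RefSeq. Counts were fitted in R 4.3.3 with edgeR 4.0.16 (filterByExpr, TMM, robust quasi-likelihood test, two-sided, Benjamini-Hochberg over the 16287 genes that passed the filter, biological coefficient of variation 0.143). CPM were computed on the TMM-scaled library total. Single genes were also tested by the exact permutation test over 70 regroupings. Alternatives were DESeq2 1.42.0, its size factors, limma-voom 3.58.1, no filter, at least 10 counts in every library, a replicate block, lane tag 2 only and leaving out each library. Fits were tested on simulated data. No pair of libraries of a group agreed within counting noise. Members were given with every library's value if they had an unadjusted p under 0.05, groups without overlap or the highest level per kb in their class, and the rest by summary. From each partner list at most 6 genes were named, by smallest p, and some partner genes are not reported here.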

Additional observations from a re-analysis of the deposited data

Results flagged for a closer look

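Ephb6 in dcKO_Nex-Cre cortex had 1 library far from the others: replicate 1 at 121 CPM, against 99.6 to 101 CPM in the other 3, with a gap of 0.945 of the group's range, above Dixon's critical value for 4 samples. Of 64 groups of libraries examined over the members, 1 was marked in this way, and chance alone marks about 1 in 20, or 3.2 of 64. Without that library all mutants were still above all controls.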

How the results depend on the processing

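With all libraries, edgeR gave 0 members at an adjusted p under 0.05 in either direction (0.51% of all genes lower, 0.375% higher). DESeq2 gave 1 lower (1.66% of all genes) and 2 higher (1.31%). No filter gave 1 lower, and the share of all genes was not computed for that fit. Lane tag 2 alone gave 2 higher (0.834%). Leaving out both libraries that stand apart (chosen after seeing the data) gave 3 lower (5.5%) and 6 higher (5.49%). Leaving out 1 library gave 0 to 2 lower and 0 to 6 higher, the highest without mutant replicate 4 (3.74% and 3.98% of all genes). DESeq2's size factors, limma-voom and at least 10 counts in every library gave 0. At an unadjusted p under 0.05 the members with higher values numbered 6 within lane tag 2 (11.7% of all genes), 7 without both libraries (14.9%) and 2 to 8 in leave-one-out fits (4 without control replicate 3, 6.08% of all genes, and 8 without mutant replicate 4, 14.3%), against 2 (6.59%). Non-overlapping members numbered 9 higher within lane tag 2 (17.4% of all genes), 6 higher without both libraries (16.8%), and 3 to 5 lower and 2 to 6 higher in leave-one-out fits (5 lower without mutant replicate 1, 5.77% of all genes, and 6 higher without mutant replicate 4, 13.4%). The members' median log2 fold change was 0.096 within lane tag 2 and -0.060 to 0.082 in leave-one-out fits. Of the partner genes, against 0, DESeq2 gave 1 lower (1.66% of all genes) and 1 higher (1.31%). No filter gave 1 lower, again without a share of all genes. Leaving out both libraries gave 2 lower (5.5%) and 8 higher (5.49%). Leave-one-out fits gave 0 to 1 lower and 0 to 6 higher, the highest without mutant replicate 4 (3.74% and 3.98% of all genes). At an unadjusted p, 23 were higher within lane tag 2 and 25 without both libraries or without mutant replicate 4, against 8, beside the same shares of all genes (11.7%, 14.9% and 14.3%, against 6.59%). The causes were not tested.

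The sign of the log2 fold change turned for Epha2 (limma-voom -0.023, replicate block -0.027, leave-one-out -0.142 to 0.171), Epha3 (-0.036 without both libraries), Epha6 (0.022 in lane tag 2, 0.007 without both libraries), Ephb3 (-0.011 without both libraries), Efnb1 (0.024 in lane tag 2) and Dcc (0.016 in lane tag 2, 0.034 without both libraries). In leave-one-out fits the log2 fold change ran from -0.219 to 0.061 for Epha6, -0.073 to 0.187 for Ephb2, -0.083 to 0.096 for Ephb3, -0.060 to 0.081 for Efna4, -0.154 to 0.054 for Efnb1, -0.322 to 0.842 for Ntn1 and -0.130 to 0.038 for Dcc. The 6 members with an unadjusted p under 0.05 passed it in all 8 leave-one-out fits.

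The labels do not say whether same-numbered libraries were paired. Deviations of same-numbered libraries correlated at 0.126, 0.0179, 0.135 and -0.138, and no library correlated best with its own number. The largest correlation, 0.371, joined control replicate 2 and mutant replicate 4, the 2 libraries that stood apart in mitochondrial share. These correlations cannot decide whether the libraries were paired. The replicate block gave 0 members at an adjusted p under 0.05, and 5 lower (6.55% of all genes) and 2 higher (5.57%) at an unadjusted p under 0.05.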
